A study of Mus musculus with 4 samples.

Results

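The 10 genes described here encode subunits of the mammalian SWI/SNF chromatin remodeling complex, also called the BAF complex, that are exchanged when neural progenitors become neurons. They are Actl6a and Actl6b, Phf10, Dpf1 and Dpf3, Ss18 and Ss18l1, Smarca4 and Smarca2, and Smarcd3. They were taken by gene symbol and not by a cutoff on a measured value, but earlier results of these data were known when they were chosen. Of the 10 genes, 10 were found among the 32285 genes of the count matrices. The data were unique molecular identifier (UMI) counts of single cells from the forebrain of C57BL/6 mice at postnatal day 5, sorted for the red fluorescent protein tdTomato. There were 2 control libraries (genotype NestinCreERT2/tdTomato/Chd8+/+) and 2 mutant libraries (NestinCreERT2/tdTomato/Chd8+/F), called control 1, control 2, mutant 1 and mutant 2, and each was a pool of 3 mice. The F allele is a floxed allele of Chd8, which encodes a chromodomain helicase. Controls and mutants both carried the tamoxifen-inducible Cre recombinase under the Nestin promoter, which is active in neural progenitors, and the Cre-dependent tdTomato reporter, and the dams of both received tamoxifen in midgestation. The comparison of interest was between dividing progenitors, neurons and glia, with the genotype as a further comparison.

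BAF complexes use the energy of ATP to move nucleosomes and so open or close regulatory DNA. A complex holds 1 ATPase, Smarca4 (BRG1) or Smarca2 (BRM), and several positions that can be filled by related proteins. In dividing neural progenitors the actin-related position is filled by Actl6a (BAF53a), a further position by Phf10 (BAF45a), which carries PHD fingers, and another by Ss18. In neurons that have left the cell cycle Actl6b (BAF53b), Dpf1 (BAF45b) or Dpf3 (BAF45c) and Ss18l1 (CREST) take these places, and the neuronal complex is known for its part in dendrite growth. REST, a repressor of neuronal genes in other cells, and the microRNAs miR-9-3p (also called miR-9*) and miR-124 are known to act in this switch: REST holds the microRNA genes down in progenitors, and the microRNAs hold down Actl6a in neurons. Because the switch is known from other work, its direction in these cells is a description of the data and not independent evidence.

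The sequences that this background turns on were read from the annotation. The mature miR-9-3p of RefSeq (build GRCm38.p6) is shown first with its seed, bases 2 to 8 from the 5′ end, in capitals. The next lines show the match to that seed (AGCTTTA, capitals) in the longest annotated 3′ untranslated regions of Actl6a, at chr3:32726629-32726657 on the plus strand, and of Smarca2, at chr19:26777491-26777519 on the plus strand (GENCODE vM21, mm10). The last line shows the stretch of Actl6b that holds both half-sites of the element to which REST binds, at chr5:137553568-137553589, in the orientation of the gene.
miR-9-3p: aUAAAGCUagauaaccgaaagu
Actl6a seed match: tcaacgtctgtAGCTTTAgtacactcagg
Smarca2 seed match: catctagaactAGCTTTAgggtagtgcca
Actl6b REST half-sites: CTGTCCggccgcctcGGTGCTG

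The seed match of Actl6a began at base 38 after the stop codon of a 371-base 3′ untranslated region. Of the longest 3′ untranslated regions of 20992 genes, 11.3% held at least 1 such match, and the other 8 members held 0, so the match by itself does not set Actl6a apart. Each REST half-site was searched on both strands from 250 bases before to 50 bases after the RefSeq start of each gene. The first half-site, spelled CAGCACC, was in 7.14% of 32851 such promoters. The second half-site, spelled GGACAG, was in 22.2% of these promoters. Both are shown above as they read on the other strand. The pair, in that order and with at most 20 bases between, was in 43 promoters, or 0.131%. Among the 9 members with a promoter entry the pair was found in Actl6b, 23 to 44 bases after the start of transcription, with 9 bases between the half-sites. That stretch lies in the first exon of 5 of 5 annotated protein-coding transcripts of Actl6b and upstream of the coding sequence, in the 5′ untranslated region. These matches are descriptions of sequence and not measured binding.

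After filtering, 17623 cells remained, with 2973 to 5710 cells and a median of 11497 to 11838 UMIs per cell in a library. Cells were clustered without the genes described here, and clusters took class names from marker genes, so that each name stands for cells that are like that class in their markers. Neurons (excitatory and inhibitory) were 21.6% of the cells, dividing progenitors 16.4% and glia (astrocytes, oligodendrocyte precursor cells or OPCs, and oligodendrocytes) 46.1%, although the label of the samples was neuronal cells. Pairs of libraries shared 8 to 21 cell barcodes. The replicate 1 matrices were made with Cell Ranger 7.0.0 and the replicate 2 matrices with 5.0.1, and the replicates also differed in their cells: 37.8% and 44.0% of the barcodes of replicate 2 were over the mitochondrial limit of 10%, against 9.38% and 12.3% in replicate 1. Doublets were not removed by a caller, and their part in the levels was not tested. Chd8 itself was at 61.7 CPM (counts scaled to the same total in each library) in control 1, 89.8 in control 2, 68.7 in mutant 1 and 94.9 in mutant 2, over all cells. The 3′ counts of Chd8 can lie outside the deleted exons, so they do not check the genotype.

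Neurons differed from dividing progenitors in most of the switching subunits. Actl6b, Ss18l1, Dpf1, Dpf3 and Smarca2 were higher in neurons, Actl6a, Phf10 and Ss18 were lower, and Smarca4 and Smarcd3 did not pass the test. That is 8 of 10 members at a Benjamini-Hochberg adjusted p under 0.05 in edgeR's quasi-likelihood test on counts summed per class and library, where 64.4% of 15719 genes were called. By direction, 5 were higher, against 34.1% of all genes, and 3 were lower, against 30.3%. At a change of at least 2-fold, 5 of the 10 were called against 25.2% of all genes, with Actl6b, Ss18l1, Dpf1 and Dpf3 higher (4, against 13.6%) and Ss18 lower (1, against 11.6%). The median log2 difference was 0.46 over the members and 0.05 over all genes. In glia over dividing progenitors 6 of 10 members were called, against 63.2% of all genes, 2 higher (36.5%) and 4 lower (26.6%). Of these 1, Actl6b, lay at 2-fold or more, against 20.7%, and it was lower in glia, against 8.56%, while 0 were higher at 2-fold, against 12.1%. In neurons over glia 8 of 10 were called, against 67.5%, 6 higher (33.2%) and 2 lower (34.3%). Actl6b, Ss18l1 and Dpf1 were the 3 at 2-fold or more, against 29.6%, and were higher in neurons, against 13.4%, while 0 were lower at 2-fold, against 16.2%. These 3 comparisons share their libraries and classes.

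Within lineages and neuron types the members also differed. In inhibitory neurons over dividing inhibitory progenitors 8 of 10 were called, against 46.1% of all genes, 5 higher (24.9%) and 3 lower (21.1%). At 2-fold or more there were 5, against 21.4%: Actl6b, Smarca2, Dpf1, Ss18 and Actl6a. In oligodendrocytes over OPCs 9 of 10 were called, against 47.2%, 4 higher (21.8%) and 5 lower (25.4%). The count became 4 without mutant 1, when Actl6a, Dpf3, Phf10, Smarca4 and Ss18l1 no longer passed. Of the higher members, Smarca4 and Actl6a were nearly level in CPM, which lacks the TMM scaling of the fit. Their log2(CPM + 1) differences in single libraries ran from 0.0125 to 0.0595 for Smarca4 and from -0.199 to 0.171 for Actl6a. At 2-fold or more 3 were lower (Actl6b, Dpf3 and Smarcd3), against 22.5% of genes in either direction and 15.7% lower, and 0 were higher, against 6.81%. In excitatory over inhibitory neurons 6 of 10 were called, against 34.5%, 5 higher (18.7%) and 1 lower, Actl6a (15.9%). The higher Actl6b among these (0.38 ± 0.15) lost its call without any 1 of the 4 libraries, with 0.28 without control 2 and 0.42 without mutant 1, and Phf10 lost it without control 1 (0.32) or mutant 1 (0.39). At 2-fold or more 2 were higher, against 10.1%, and 0 were lower, against 5.24%.

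**Figure D1:**
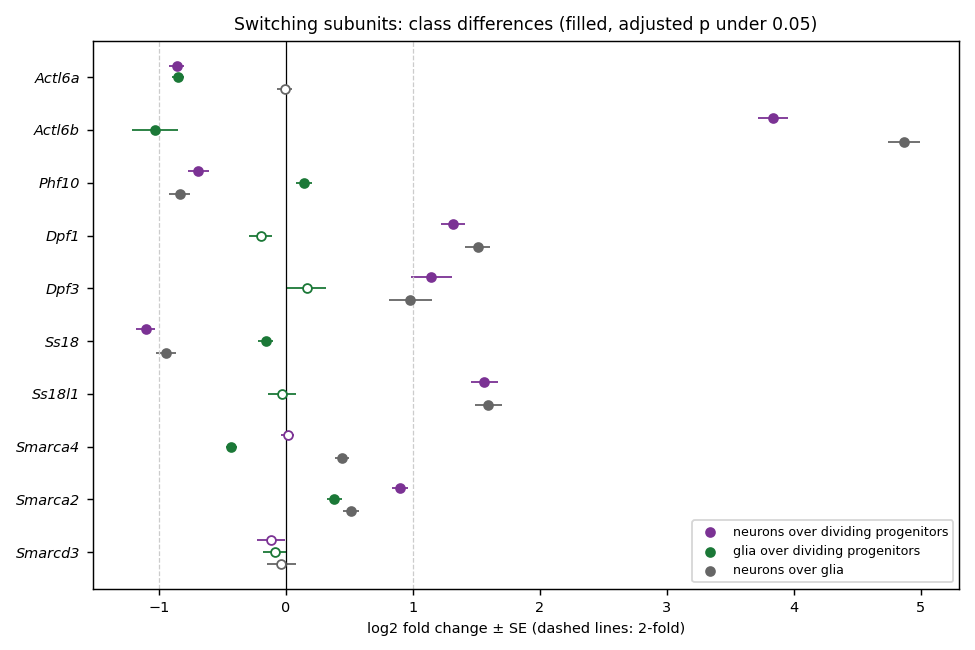
Log2 fold change ± SE of each subunit gene (y axis) in the 3 comparisons of classes (colours), from counts summed per class in 4 libraries. Filled points passed an adjusted p of 0.05, open points did not, and dashed lines mark 2-fold. Actl6b lies farthest to the right, at 3.84 over dividing progenitors and 4.87 over glia, while Smarcd3 lies near 0 in each comparison.

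The actin-related subunits showed the widest exchange. Actl6b (chr5:137553517-137569582, plus strand, mm10), the neuronal subunit, was at 102, 152, 85.6 and 156 CPM in the excitatory neurons of control 1, control 2, mutant 1 and mutant 2. In inhibitory neurons it was at 73.7, 103, 69.8 and 121 CPM in the same order. The ranges of the neuron types overlapped each other and lay above every other class in every library. Dividing excitatory precursors, a mixed class of the excitatory lineage, had 25.6, 25.4, 20.2 and 45.9 CPM, and dividing inhibitory progenitors had 18.96, 18.1, 13.9 and 19.7 CPM. Dividing astrocyte progenitors had 0.774 to 1.13 CPM, so the dividing classes did not share a level: the neuronal lineages stood above the glial ones. A UMI of Mki67, a gene of cycling cells, was in 51.5% of the dividing excitatory precursors, against 93.6% to 98.0% in the other dividing clusters. Finer clusters held 338 excitatory precursors not called dividing, 21.3% of them with a UMI of Mki67, beside 229 that were, and the Actl6b share of the UMIs of Actl6a and Actl6b in dividing progenitors was 5.29% instead of 8.14%. Neurons exceeded dividing progenitors by 3.84 ± 0.12 on the log2 scale, or 14.3-fold (SE, edgeR adjusted p = 4.7e-31). The difference within single libraries ran from 3.25 to 3.86 on the log2(CPM + 1) scale. This contrast weighs each dividing class equally, the low glial ones included. Within the inhibitory lineage alone the difference was smaller, at 1.90 to 2.56 in single libraries on that scale. Excitatory neurons averaged 124 CPM against 29.3 CPM in dividing excitatory precursors. Neurons exceeded glia by 4.87 ± 0.13 (edgeR adjusted p = 4.6e-33). Glia in turn lay below dividing progenitors, with a log2 difference of -1.03 ± 0.18 (edgeR adjusted p = 2.3e-06). Its size was below 2-fold without mutant 2 (-0.89), with a mitochondrial limit of 5% (-0.72) or with finer clusters (-0.81). With classes taken from marker counts alone it was -0.49 and not called. Within the glial lineages this direction did not hold throughout. OPCs averaged 10.4 CPM and oligodendrocytes 2.41 CPM, against 5.62 CPM in dividing OPCs. Astrocytes averaged 1.29 CPM against 0.918 CPM in dividing astrocyte progenitors, with overlapping ranges.

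Among glia, OPCs held most of the Actl6b that was found. OPCs had 8.21 to 12.8 CPM, dividing OPCs 3.53 to 7.86 CPM, and astrocytes 0.981 to 1.60 CPM. The ranges of OPCs and dividing OPCs did not overlap. Oligodendrocytes, a class that also held committed OPC-like cells, had 2.55, 0, 2.71 and 4.37 CPM, and lay below OPCs, with a log2 difference of -1.63 ± 0.31 (edgeR adjusted p = 2.2e-05). The 596 cells of this class scored 4.77 for committed OPC markers and 4.38 for oligodendrocyte markers, and finer clusters held 264 cells named committed OPCs and 322 named oligodendrocytes. Each comparison of oligodendrocytes with OPCs is thus of this mixed class. OPCs also had 1205 to 1609 CPM summed over 8 pan-neuronal markers and oligodendrocytes 981 to 1443 CPM, against 304 to 503 CPM in astrocytes, and the part of such RNA in their Actl6b was not tested. In endothelial cells, choroid plexus cells and fibroblasts, which were too few for the fits, Actl6b had 0 UMIs.

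Actl6a (chr3:32706298-32726973, plus strand, mm10), the progenitor subunit, was highest in a dividing class. Dividing inhibitory progenitors had the most, at 176, 181, 168 and 211 CPM in control 1, control 2, mutant 1 and mutant 2, and this range lay above that of dividing excitatory precursors (125 to 139 CPM). Excitatory neurons had 59.3, 63.2, 63.7 and 66.7 CPM and inhibitory neurons 73.9, 89.5, 71.7 and 92.5 CPM. Both neuron types overlapped OPCs (61.2 to 95.5 CPM), while oligodendrocytes (69.0 to 83.1 CPM) overlapped the inhibitory neurons and lay above the excitatory ones. The lowest of the fitted classes was ependymal cells at 37.8 to 46.5 CPM. The log2 difference from dividing progenitors was -0.86 ± 0.06 in neurons (edgeR adjusted p = 2.6e-17) and -0.85 ± 0.05 in glia (edgeR adjusted p = 5.1e-20). Neurons and glia differed by -0.01 ± 0.06 (edgeR adjusted p = 0.92), a difference that changed sign with the processing. The lower Actl6a was thus measured in neurons and glia alike, whereas the higher Actl6b was measured in neurons. Dividing OPCs, at 87.3 to 113 CPM, were the lowest dividing class and overlapped inhibitory neurons and OPCs.

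UMIs of Actl6a were also counted under the barcodes of neurons. With each cell thinned to 3000 UMIs, and cells with fewer left out (118 excitatory and 345 inhibitory neurons), 25.9% of 819 excitatory neurons had a UMI of Actl6b (exact Clopper-Pearson 95% interval 22.9 to 29.0) and 17.95% had one of Actl6a (15.4 to 20.8). In inhibitory neurons these shares were 20.9% and 19.1% of 2533 cells. Dividing inhibitory progenitors had a UMI of Actl6b in 5.52% (3.96 to 7.47) and of Actl6a in 37.0% (33.4 to 40.6) of 706 cells. Microglia, immune cells that should lack Actl6b, gave the background: 0.288% of 347 cells (0.00730 to 1.60), at a median of 10717 UMIs per cell before thinning, against 9731 in excitatory neurons and 6353 in inhibitory neurons. The share in dividing astrocyte progenitors (0.205%) was not above that background and is read as such, and the interval of dividing OPCs (0.271 to 1.93%) overlapped it. The shares of OPCs (3.34%, 2.62 to 4.19) and dividing excitatory precursors (10.2%, 7.83 to 13.03) lay above it. Without thinning, 57.1% of excitatory and 38.05% of inhibitory neurons had a UMI of Actl6b. These intervals cover counting error only.

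UMIs of both paralogs were counted under the same neuron barcodes. Among the thinned excitatory neurons, 37 had UMIs of both genes, 175 of Actl6b alone, 110 of Actl6a alone and 497 of neither. A UMI of Actl6a was found in 17.5% of the excitatory neurons with a UMI of Actl6b and in 18.1% of those without. In inhibitory neurons the same shares were 18.3% and 19.3%. Without thinning, where cells differ in depth, they were 46.4% and 35.6% in excitatory and 36.7% and 35.4% in inhibitory neurons. No class that should lack Actl6a gave its background: it was found in 17.3% of the thinned microglia (13.5 to 21.7) and in 20.1% of endothelial cells (14.2 to 27.2). Doublets were not removed, and the part of free RNA or doublets in these counts was not tested.

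**Figure D2:**
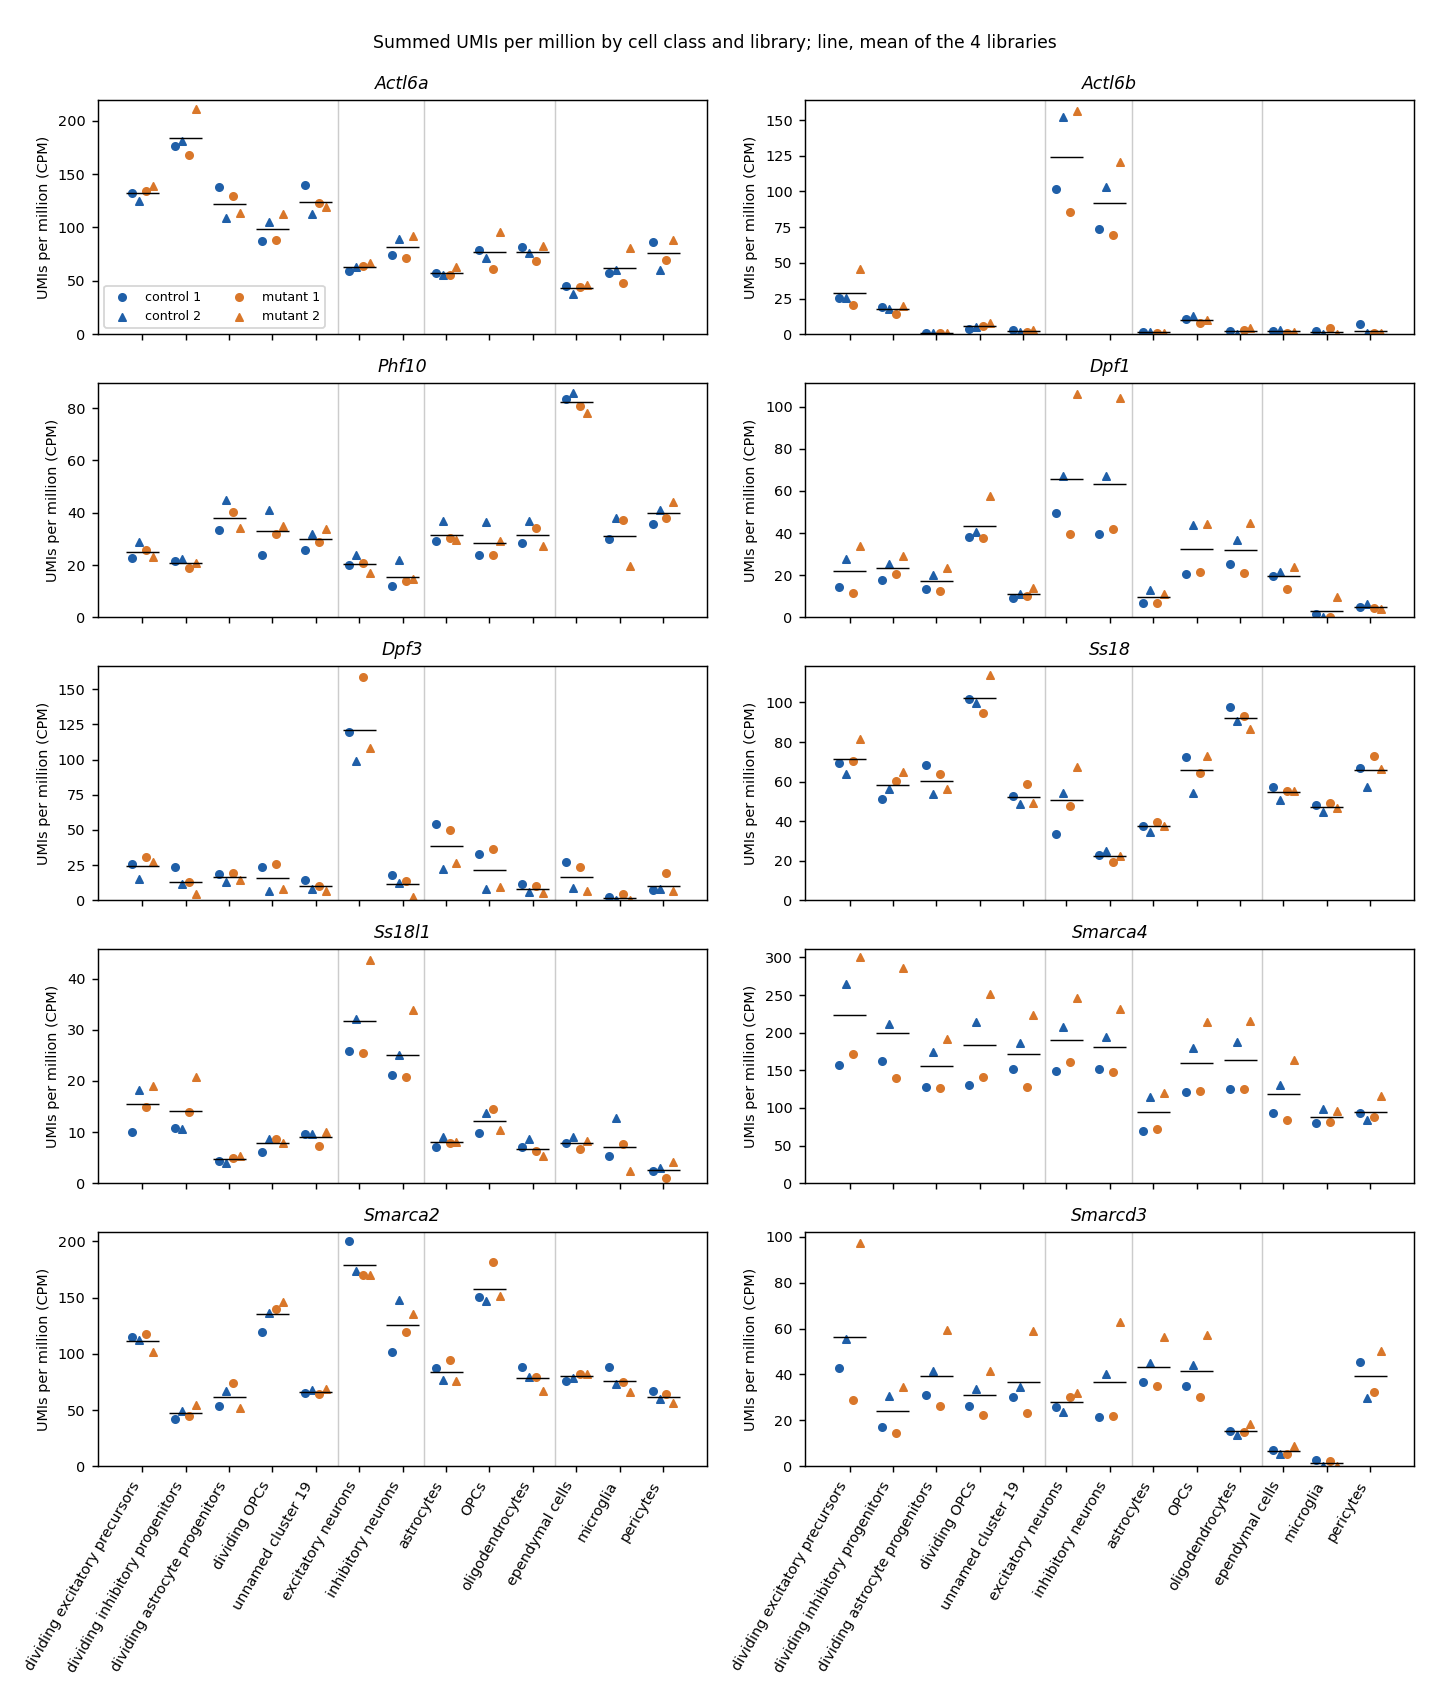
Summed counts scaled to the same total (CPM, y axis from 0) of each subunit gene in 13 cell classes (x axis), with control libraries in blue, mutant libraries in orange, replicate 1 as circles and replicate 2 as triangles, and a line at the mean of the 4 libraries. Actl6b and Ss18l1 peak in both neuron types, Dpf3 in excitatory neurons, Phf10 in ependymal cells and Actl6a in dividing cells.

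The subunits with PHD fingers did not move as a block. Dpf1 (chr7:29303951-29318243, plus strand, mm10) was at 49.3, 66.9, 39.6 and 106 CPM in the excitatory and 39.6, 67.0, 41.8 and 104 CPM in the inhibitory neurons of control 1, control 2, mutant 1 and mutant 2. Each of these was highest in mutant 2, and the neuron ranges overlapped that of dividing OPCs (37.8 to 57.5 CPM). Neurons exceeded dividing progenitors by 1.32 ± 0.10 on the log2 scale (edgeR adjusted p = 1.4e-16), with 1.11 to 1.60 within single libraries. Glia did not pass the test against dividing progenitors (-0.20 ± 0.09, edgeR adjusted p = 0.058).

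Dpf3 (chr12:83213745-83487716, minus strand, mm10) was highest in excitatory neurons but not confined to them. Its levels in excitatory neurons were 119, 98.9, 159 and 108 CPM, above every other class in every library. In inhibitory neurons they were 17.6, 12.5, 13.6 and 2.42 CPM, overlapping the dividing inhibitory progenitors (4.63 to 23.8 CPM). The difference between the neuron types was 3.37 ± 0.26 on the log2 scale, or 10.3-fold (edgeR adjusted p = 4.0e-15), and Dpf3 and Ss18 were the 2 members at 2-fold or more in that comparison, against 15.3% of all genes. Ss18 was under 2-fold there without mutant 2 (0.89) and with a mitochondrial limit of 5% (0.76). Inhibitory neurons did not pass the test against their own dividing progenitors (-0.26 ± 0.30, edgeR adjusted p = 0.51), so the higher Dpf3 of neurons as a whole (1.15 ± 0.16, edgeR adjusted p = 2.4e-08) came with the excitatory type. Dpf3 was also lower in replicate 2 than in replicate 1 over all cells, 0.466-fold in controls and 0.543-fold in mutants. It has 269747 intronic bases, and the 2 versions of Cell Ranger can differ in how they count introns. Within the fitted classes replicate 2 was lower too, except in the pericytes of the controls (7.17 and 8.22 CPM). Among classes too small for the fits, the fibroblasts of the mutants were also higher in replicate 2 (4.71 and 5.91 CPM). OPCs had 32.8 CPM in control 1 and 7.72 in control 2, and 36.5 in mutant 1 and 9.29 in mutant 2. Ependymal cells had 27.2 and 8.66 CPM in the controls and 23.9 and 6.74 CPM in the mutants. The software and the replicate cannot be told apart for its level.

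Phf10 (chr17:14945009-14961273, minus strand, mm10) was lower in neurons, with log2 differences of -0.69 ± 0.08 from dividing progenitors (edgeR adjusted p = 2.8e-10) and -0.84 ± 0.08 from glia (edgeR adjusted p = 1.1e-12). Inhibitory neurons had 11.9, 21.9, 13.8 and 14.5 CPM and dividing astrocyte progenitors 33.3, 44.7, 40.4 and 34.2 CPM. The dividing neuronal lineages were already low, at 18.8 to 22.3 CPM in the inhibitory and 22.5 to 28.9 CPM in the excitatory lineage. Each overlapped the neurons of its lineage, with excitatory neurons at 17.0 to 23.8 CPM. In single libraries, inhibitory neurons differed from their dividing progenitors by -0.79 to -0.025 on the log2(CPM + 1) scale. Glia and dividing progenitors differed by 0.15 ± 0.06 (edgeR adjusted p = 0.039), a call that was lost without control 1 or without mutant 1 (0.15 and 0.16).

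The highest Phf10 was in ependymal cells, the ciliated cells that line the ventricles, at 83.4, 86.0, 81.0 and 78.3 CPM, and no other class reached this range in the fits. A closer view, taken after these values were seen, divided the ependymal cells into 2 clusters. The 167 cells led by Cdc20b, Mcidas, Deup1 and Ccno, genes known for the making of multiple cilia, had 235, 197, 198 and 229 CPM of Phf10. The 726 cells led by Tmem212 and Ccdc153 had 50.3, 53.2, 47.9 and 46.0 CPM. The clusters did not overlap in any library. The first cluster also had more Actl6a, 61.9 to 73.7 CPM against 30.7 to 42.9 CPM. It had a UMI of Mki67 in 19.2% of its cells against 3.86%, and 801 against 73.4 CPM of Top2a.

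Ss18 and its neuronal counterpart changed in opposite directions. Ss18l1 (chr2:180042509-180070201, plus strand, mm10), a calcium-responsive coactivator, was at 25.9, 32.1, 25.5 and 43.7 CPM in excitatory and 21.1, 25.0, 20.7 and 33.8 CPM in inhibitory neurons. Dividing excitatory precursors had 10.0 to 18.97 CPM and did not overlap either neuron type. Dividing inhibitory progenitors had 10.9, 10.6, 13.9 and 20.8 CPM, so their highest library, mutant 2, reached the lowest inhibitory value. Neurons exceeded dividing progenitors by 1.57 ± 0.10 on the log2 scale, or 2.96-fold (edgeR adjusted p = 3.8e-18), and glia did not pass that test (-0.03 ± 0.11, edgeR adjusted p = 0.95).

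Ss18 (minus strand of chromosome 18) was highest in dividing OPCs, at 102, 99.6, 94.5 and 114 CPM, and in oligodendrocytes, at 97.8, 90.5, 93.0 and 86.6 CPM, whose ranges overlapped. It was lowest in inhibitory neurons, at 22.8, 25.0, 19.4 and 22.4 CPM, below the 12 other fitted classes in every library. Excitatory neurons had 33.4, 54.0, 47.8 and 67.4 CPM and exceeded inhibitory neurons by 1.08 ± 0.13 on the log2 scale (edgeR adjusted p = 1.7e-09). Neurons lay below dividing progenitors, with a log2 difference of -1.10 ± 0.08 (edgeR adjusted p = 1.2e-17). In the oligodendrocyte lineage, oligodendrocytes exceeded OPCs by 0.70 ± 0.11 (edgeR adjusted p = 3.8e-07), with a UMI of Mki67 in 6.04% of their cells. OPCs (54.1 to 72.7 CPM) also lay below dividing OPCs, whose range overlapped that of oligodendrocytes. Oligodendrocytes were thus not shown to exceed the dividing cells of their lineage.

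Of the ATPases, Smarca2 (chr19:26605050-26778322, plus strand, mm10) differed between neurons and dividing progenitors and Smarca4 (chr9:21616169-21704230, plus strand, mm10) did not pass the test. Smarca2 was at 201, 174, 170 and 170 CPM in excitatory and 101, 148, 120 and 135 CPM in inhibitory neurons. Dividing inhibitory progenitors had the least, at 42.2, 48.9, 44.3 and 54.4 CPM, and the inhibitory lineage thus differed by 1.40 ± 0.11 on the log2 scale (edgeR adjusted p = 1.1e-14). OPCs, at 150, 147, 182 and 151 CPM, overlapped the excitatory neurons, so a high Smarca2 was not confined to neurons. Over the classes, neurons exceeded dividing progenitors by 0.90 ± 0.06 (edgeR adjusted p = 1.9e-17) and glia exceeded them by 0.38 ± 0.06 (edgeR adjusted p = 6.4e-08). Oligodendrocytes were lower than OPCs, with a log2 difference of -0.78 ± 0.10 (edgeR adjusted p = 2.0e-08).

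Smarca4 was at 150 to 246 CPM in excitatory neurons and 140 to 286 CPM in dividing inhibitory progenitors, and each of the 12 neighbouring pairs in the order of its class means overlapped. The log2 difference of neurons over dividing progenitors was 0.01 ± 0.05 (edgeR adjusted p = 0.84). It was called at 0.17 without control 2 and at 0.17 without mutant 2, and at 0.12 by DESeq2. Glia lay below dividing progenitors, with a log2 difference of -0.43 ± 0.05 (edgeR adjusted p = 1.5e-11), and astrocytes, at 69.8, 115, 71.9 and 120 CPM, were the low glial class. Over all cells Smarca4 was 1.34-fold higher in control 2 than in control 1 and 1.54-fold higher in mutant 2 than in mutant 1, a difference between replicates that was larger than the difference between neurons and dividing progenitors.

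Smarcd3 (BAF60c; chr5:24590818-24624411, minus strand, mm10), which bridges the complex and transcription factors, did not follow the switch. It was highest in dividing excitatory precursors, at 42.9, 55.4, 29.0 and 97.3 CPM, and nearly as high in astrocytes, at 36.7, 45.2, 34.9 and 56.5 CPM, with overlapping ranges. Neurons over dividing progenitors gave -0.12 ± 0.11 (edgeR adjusted p = 0.35). Ependymal cells (5.31 to 8.67 CPM) and microglia (0 to 2.87 CPM) lay below the other fitted classes, and the next lowest, oligodendrocytes (13.5 to 18.4 CPM), overlapped dividing inhibitory progenitors (14.6 to 34.7 CPM). Oligodendrocytes lay below OPCs, with a log2 difference of -1.05 ± 0.18 (edgeR adjusted p = 4.1e-06). In the inhibitory lineage alone, neurons exceeded their dividing progenitors by 0.55 ± 0.18 (edgeR adjusted p = 0.011), which was not called without mutant 1 (0.50). Its level over all cells was 1.997-fold higher in mutant 2 than in mutant 1 and 1.34-fold higher in control 2 than in control 1.

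The exchange within each position was set out as a share of the UMIs of the paralogs that can fill it. In neurons Actl6b gave 58.8% ± 4.7 (SD over 4 libraries) of the UMIs of Actl6a and Actl6b, against 8.14% ± 1.40 in dividing progenitors and 5.74% ± 0.30 in glia. The 4 neuron values (56.5%, 62.1%, 53.4% and 63.4%) lay far above the dividing (6.92% to 10.2%) and glial values (5.28% to 5.91%). Ss18l1 gave 45.6% ± 3.0 of the UMIs of Ss18 and Ss18l1 in neurons, 12.8% ± 1.7 in dividing progenitors and 13.5% ± 2.3 in glia, and the dividing and glial ranges overlapped. Dpf1 and Dpf3 together gave 86.2% ± 3.1 of the UMIs of Phf10, Dpf1 and Dpf3 in neurons, but already 59.9% ± 3.9 in dividing progenitors and 60.4% ± 4.5 in glia. Dpf2, a widely expressed relative that can fill the same position, was not in this sum.

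The shares of the other positions separated the classes less. Smarca2 gave 45.0% ± 4.5 of the ATPase UMIs in neurons, 31.6% ± 5.9 in dividing progenitors and 43.9% ± 8.7 in glia, and the neuron and glial ranges overlapped. Smarcd3 gave 11.4% ± 2.3 of the UMIs of Smarcd1, Smarcd2 and Smarcd3 in neurons, 19.1% ± 6.4 in dividing progenitors and 22.2% ± 3.7 in glia. A share compares 3′ counts of different genes, whose capture may differ, so it is read between classes and not as the makeup of the protein complex. Within the glia, the Actl6b share was 12.1% in OPCs, 2.95% in oligodendrocytes and 2.20% in astrocytes.

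**Figure D3:**
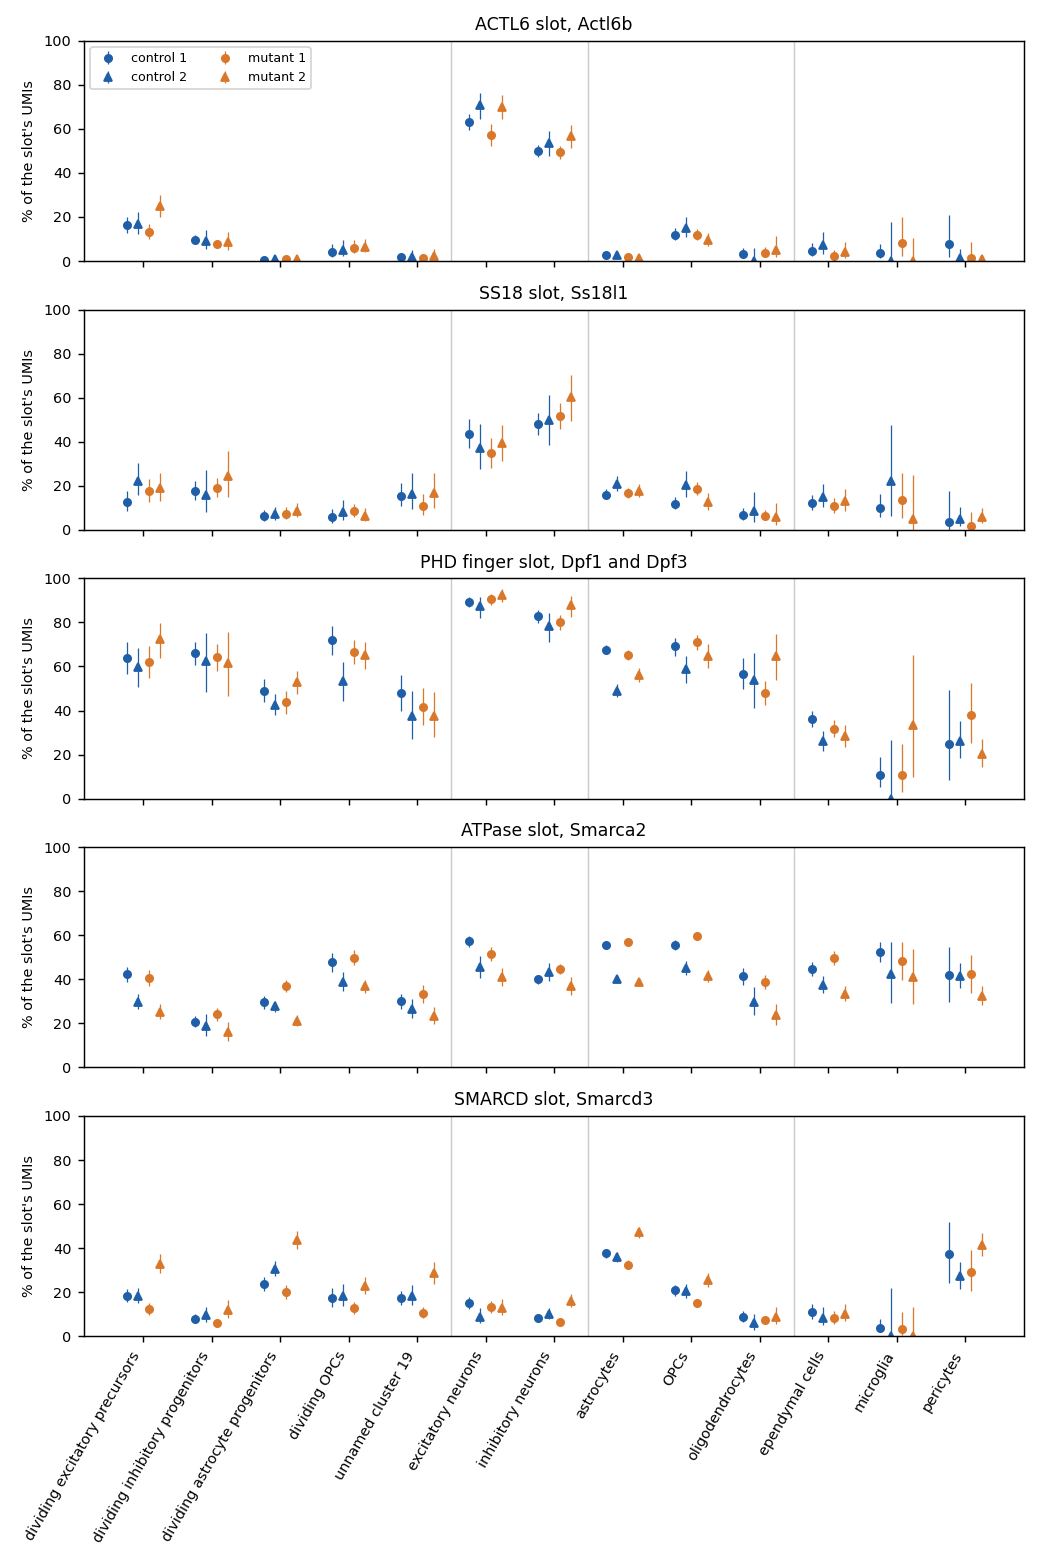
Share of the UMIs of each position that came from the named paralog (y axis, percent, 0 to 100) in 13 cell classes (x axis), with 1 point per library and exact 95% intervals for counting error. The Actl6b share lies between 49.4% and 70.6% in the neuron types and at or below 24.8% in every other class, whereas the Smarca2 share overlaps between neurons and glia.

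The inhibitory lineage held a dividing cluster and 4 neuron clusters, in which the exchange was set out. The 5 clusters are described in the order of their Syt1 level, a synaptic vesicle gene, which was chosen after the values were seen and is not a measure of time or maturity. They were the dividing cluster (19.6 CPM of Syt1), clusters led by Sp8 and Dlx5 (35.9) and by Prokr2 (119), and clusters led by Galntl6 (783) and by Foxp2 and Rarb (847). Pooled over libraries, Actl6a was at 176, 89.2, 60.8, 60.9 and 69.6 CPM in this order. Actl6b was at 16.9, 57.2, 95.2, 75.9 and 120 CPM. The step from the dividing cluster to the cluster led by Sp8 was thus the largest for Actl6a, and its libraries did not overlap (168 to 211 against 81.8 to 116 CPM).

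Other subunits differed in where along this order they stood apart. Ss18 was at 56.3, 26.4, 14.7, 23.3 and 18.7 CPM, again with the largest step at the first neuronal cluster. Dpf1 was at 20.5, 26.1, 61.2, 62.9 and 90.1 CPM, and in the cluster led by Sp8 its libraries (20.8 to 66.6 CPM) still overlapped those of the dividing cluster (17.8 to 29.0 CPM). Smarca2 was at 44.5, 66.3, 122, 166 and 245 CPM, and each of its values in the cluster led by Foxp2 and Rarb (210 to 364 CPM) exceeded its values in the cluster led by Prokr2 (109 to 144 CPM). Smarca4 was at 166, 164, 159, 125 and 169 CPM. The cluster led by Galntl6 had 8 cells in mutant 2, and no value is given for that library.

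**Figure D4:**
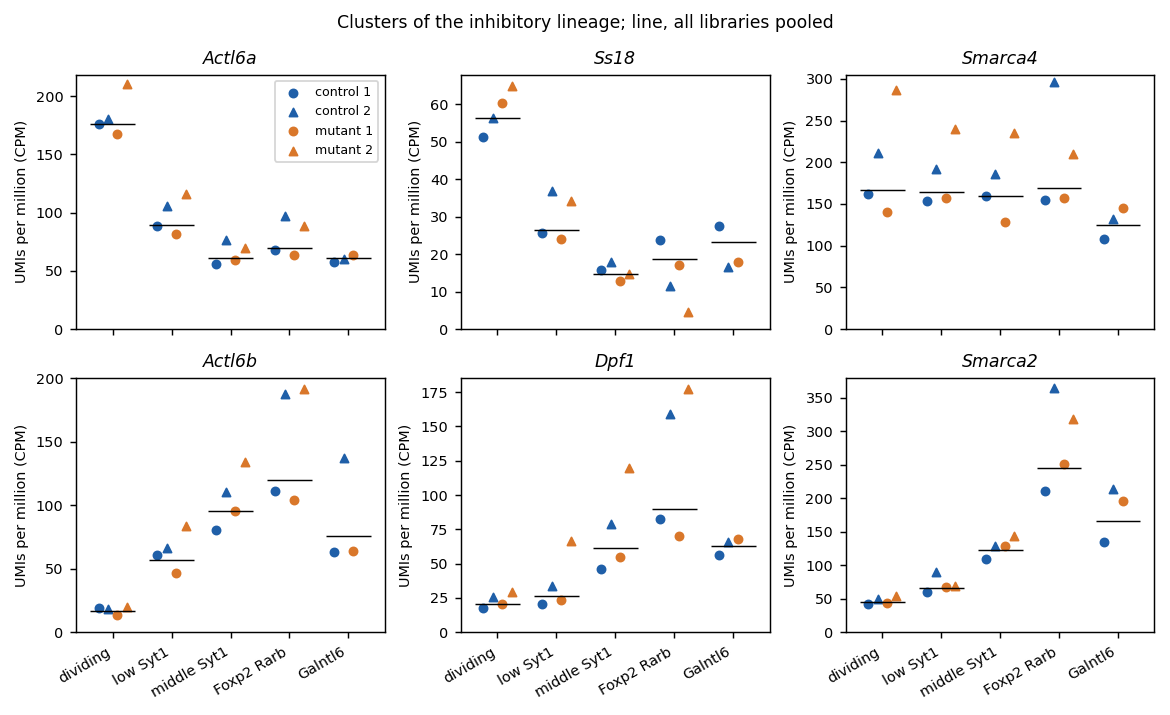
CPM (y axis from 0) of 6 subunit genes in 5 clusters of the inhibitory lineage, labelled by their state or leading genes: dividing, the clusters led by Sp8 (low Syt1) and Prokr2 (middle Syt1), and those led by Foxp2 and Rarb and by Galntl6. Points are libraries with at least 20 cells and lines are all libraries pooled. Actl6a and Ss18 drop at the first neuronal cluster, while Dpf1 and Smarca2 are highest in the cluster led by Foxp2 and Rarb.

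The remaining subunits of the complex were taken as a list of 21 genes. In neurons over dividing progenitors 14 of 21 were called, against 64.4% of all genes, with 10 higher (34.1%) and 4 lower (30.3%) and a median log2 difference of 0.16 against 0.05 over all genes. The 2 at 2-fold or more, against 25.2% of all genes, were Bcl11b (3.31 ± 0.16, edgeR adjusted p = 5.7e-23) and Bcl11a (2.11 ± 0.13, edgeR adjusted p = 6.5e-19), zinc finger proteins known both as BAF subunits and as regulators of neuron identity. The core scaffold moved less, with log2 differences of 0.59 ± 0.05 for Smarcc2, 0.66 ± 0.06 for Smarcd1 and -0.14 ± 0.06 for Smarcc1. Among the lower genes were Bcl7c (-0.91 ± 0.07) and Brd7, a subunit of the PBAF form (-0.62 ± 0.06). Smarcb1, a core subunit, did not pass the test (0.09 ± 0.06, edgeR adjusted p = 0.22). Glia differed from dividing progenitors in 1 direction: 17 of 21 were lower and 0 were higher (all genes: 26.6% lower, 36.5% higher), and the median log2 difference was -0.36 against 0.10. Smarcc1 (-0.78 ± 0.05) and Smarce1 (-0.64 ± 0.05) were among the lower ones.

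The list of 11 genes known to act on or with the switch was called in 11 of 11 for neurons over dividing progenitors, 7 higher and 4 lower, against 64.4% of all genes, 34.1% higher and 30.3% lower. Rest was at 4.73, 10.5, 6.38 and 9.72 CPM in neurons, 16.2, 31.2, 16.5 and 30.2 CPM in dividing progenitors and 34.3, 50.7, 34.1 and 53.8 CPM in glia of control 1, control 2, mutant 1 and mutant 2. These means over the cell types of a class did not overlap, and Rest was higher in replicate 2 in each class. Neurons lay below glia, with a log2 difference of -2.67 ± 0.12 (edgeR adjusted p = 1.8e-24), and glia exceeded dividing progenitors by 1.42 ± 0.09 (edgeR adjusted p = 3.1e-19). As means over their cell types, glia therefore had the most Rest and the least Actl6b of the 3 classes, although OPCs had more Actl6b than dividing OPCs. Within the dividing classes, the inhibitory progenitors had 3.24 CPM of Rest in their cluster and the astrocyte progenitors 39.0 and 48.0 CPM in their clusters. The value of the inhibitory progenitors lay below the lowest neuron value (4.73 CPM). The lower Rest of neurons was thus measured against the mean of the dividing classes and did not hold against this class. The Rest levels of dividing OPCs and of dividing excitatory precursors, which had the most Actl6b of the dividing classes, are not given here. No order of Rest against Actl6b among the dividing classes is therefore drawn.

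The host transcripts of the microRNAs did not move together. Mir124a-1hg, which hosts a miR-124 gene, was at 45.6 to 69.3 CPM in neurons, 9.69 to 19.01 CPM in dividing progenitors and 2.18 to 4.495 CPM in glia, and neurons exceeded dividing progenitors by 2.85 ± 0.15 (edgeR adjusted p = 4.8e-22). Mir124-2hg gave 1.44 ± 0.13 (edgeR adjusted p = 7.2e-14). Mir9-3hg, which hosts a miR-9 gene, was instead lower in neurons, with a log2 difference of -0.69 ± 0.09 (edgeR adjusted p = 9.7e-09), with 86.2 to 140 CPM in neurons, 147 to 203 CPM in dividing progenitors and 154 to 240 CPM in glia. These are polyadenylated host transcripts, and mature microRNAs are not measured by this assay. Of the splicing regulators that miR-124 is known to act through, Ptbp1 was lower in neurons, at -1.32 ± 0.10 (edgeR adjusted p = 1.3e-16), and Ptbp2 was higher, at 0.41 ± 0.06 (edgeR adjusted p = 1.4e-07).

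**Figure D5:**
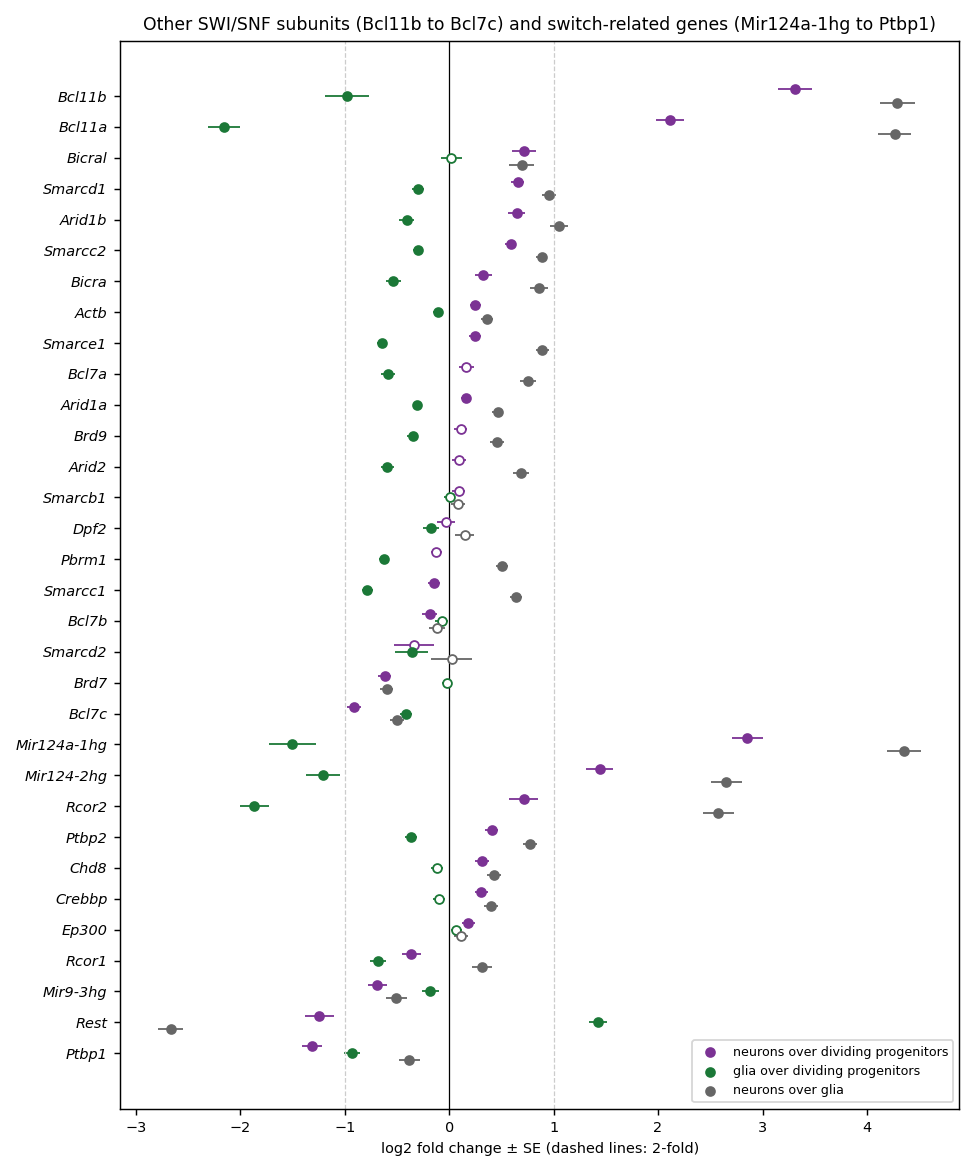
Log2 fold change ± SE (x axis) of the 21 other subunit genes, from Bcl11b to Bcl7c, and the 11 genes that act on or with the switch, from Mir124a-1hg to Ptbp1 (y axis), in the 3 comparisons of classes. Filled points passed an adjusted p of 0.05. Most other subunits lie left of 0 for glia over dividing progenitors, and Rest lies at 1.42 there and at -2.67 for neurons over glia.

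Each member was also set against 8110 genes with at least 50 CPM in a class, by Pearson's r of the mean log2(CPM + 1) over 13 classes, which share their libraries. The genes most like Actl6b were Sez6l2 (r = 0.98), Cacng2 (r = 0.97) and Myt1l (r = 0.96). Those most like Actl6a were Phf5a (r = 0.98), Dut (r = 0.97) and Mrpl18 (r = 0.96). For Dpf3 they were B3galt1 (r = 0.94), Nsmf (r = 0.92) and Fat4 (r = 0.90), for Ss18l1 Marf1 (r = 0.96), Smpd3 (r = 0.93) and Svop (r = 0.93), and for Smarca2 Cacna1e (r = 0.97), Dmxl2 (r = 0.97) and Xpr1 (r = 0.92). For Dpf1 they were Nt5c3, Usp34 and Tnks (r = 0.94 to 0.96), for Phf10 Polk, Creld2 and Pdia4 (r = 0.94 to 0.97), for Smarca4 Txnrd1, Huwe1 and Ilf2 (r = 0.96 each), and for Smarcd3 Ryk, Pfdn1 and Cdh2 (r = 0.92 to 0.96). Ss18 had the loosest neighbours, Mad1l1, Vps36 and Mphosph10 (r = 0.79 to 0.83).

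The loss of 1 Chd8 allele was compared with control within each class. Of 118 tests of a member in a class, 0 were called by edgeR and 0 had an unadjusted p under 0.05, and DESeq2 gave 0 and 0. Over all genes and classes 0.0% of 154578 tests were called by edgeR and 0.143% had an unadjusted p under 0.05, and DESeq2 called 1 gene, in pericytes. The fitted log2 differences of mutant over control ran from -0.96 to 0.61, and 112 of 118 lay within 0.5 of 0. The ranges over classes were -0.05 to 0.12 for Actl6a, -0.54 to 0.60 for Actl6b, -0.04 to 0.17 for Smarca4 and -0.96 to 0.58 for Dpf3. The median SE of a difference was 0.36. In simulated counts with 2 libraries a genotype, the same fit recovered 0% of 2-fold changes in excitatory neurons, inhibitory neurons and OPCs, so 0 calls by this fit say nothing about whether these genes respond to Chd8.

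The largest difference by genotype was that of Dpf3 in dividing inhibitory progenitors, -0.96 ± 0.66 (edgeR adjusted p = 0.99995), where the libraries had 23.8, 11.7, 13.1 and 4.63 CPM and the genotypes overlapped. On the log2(CPM + 1) scale the difference of mutant over control was -0.82 in replicate 1 and -1.17 in replicate 2. In a test chosen after the data were seen, the class differences themselves were compared between genotypes. The difference of neurons over dividing progenitors for Actl6b was 3.98 in controls and 3.75 in mutants (edgeR adjusted p = 1), and 0 of 15719 genes passed in any of the 6 comparisons, at an adjusted p of 0.05 in edgeR. In simulated counts this test recovered 57.0% of 2-fold differences for neurons over dividing progenitors, with 9 false calls. Of all such tests on the data 2.41% had an unadjusted p under 0.05. Among the members 1 did, Ss18 in excitatory over inhibitory neurons, with 0.75 in controls and 1.41 in mutants (edgeR adjusted p = 1).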

How the data were processed

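Single cells of 4 libraries were measured by 10x 3′ sequencing, and the authors deposited filtered matrices of UMI counts per gene and barcode. The authors' file headers name Cell Ranger 7.0.0 for replicate 1 and 5.0.1 for replicate 2, and the submitters' processing notes name Cell Ranger 3.0 and mm10. Libraries held 6107 to 7279 barcodes. A barcode was kept if it had between 2000 and 40000 UMIs, 1000 or more genes and no more than 10% of its UMIs from mitochondrial genes. Clustering (scanpy 1.11.5; 2000 variable genes, 30 components, 15 neighbours, resolution 1) left out the subunit and regulator genes, and of 30 clusters 29 were named from markers. Marker genes and tested genes come from the same cells, so class differences are not independent of the clustering. The members and lists were chosen with earlier results of these data known.

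UMIs were summed per class and library and given as CPM, counts scaled to the same total per class and library. Class differences were tested by edgeR 4.0.16 (R 4.3.3; quasi-likelihood, TMM, low-count filter) over 13 classes with at least 20 cells in each library, with the library as a block, and called at a Benjamini-Hochberg adjusted p under 0.05. A group of classes is the unweighted mean of its classes. Genotype was tested within each class. In simulated counts the class fit recovered 87.5% of 2-fold changes for neurons over dividing progenitors, with 1 false call among 15112 genes. Each library is a pool of mice, so an SD or a range over libraries is between 4 pools, and the libraries of a genotype are not shown to come from separate litters. With the library as a block, the SE and p of a class difference rest on how classes vary within libraries, over 13 classes. They do not measure the spread in level between pools, and the classes of a library come from the same mice. DESeq2 1.42.0, no low-count filter, a mitochondrial limit of 5%, resolution 2, classes from marker counts without clustering, no library block and leaving out each library were tried as alternatives. Detection used cells thinned to 3000 UMIs. The text names the 10 members, the genes of the lists and the 3 genes most like each member. Leading genes of clusters, and the clusters themselves, were chosen after their values were seen.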

Additional observations from a re-analysis of the deposited data

How the results depend on the processing

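Of the summary results, 196 values under an alternative stayed within their limits and 26 did not, and no called member changed direction except Phf10 in glia over dividing progenitors (-0.054 with classes from markers, where the cause was not tested). With a mitochondrial limit of 5% the Actl6b share in glia was 7.94%, the Ss18l1 share 42.4% in neurons and 17.1% in glia, and the Smarcd3 share in glia 29.7%. Oligodendrocytes then had under 20 cells in control 2, so their contrast has no value and the glial mean lacks them. At resolution 2 the Actl6b share was 5.29% in dividing progenitors and 5.40% in glia, the Ss18l1 share 11.1% and the Dpf1 and Dpf3 share 55.8% in dividing progenitors. Without thinning, Actl6a was found in 39.6% of neurons, 78.9% of dividing progenitors and 55.7% of glia, and Actl6b in 51.5%, 14.8% and 4.42%.

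For glia over dividing progenitors, 3 members were called with classes from markers, and 0 at 2-fold with that setting, no filter, a mitochondrial limit of 5% or resolution 2. Leaving out a library gave 4 to 5 calls, and 0 (without mutant 2) to 1 at 2-fold. For neurons over glia 5 were at 2-fold at resolution 2 and with classes from markers. For excitatory over inhibitory neurons 1 was at 2-fold with a mitochondrial limit of 5%, and 1 (without mutant 2) to 2 without a library. For oligodendrocytes over OPCs 4 were called with no library block, and 4 (without mutant 1) to 8 without a library. The shares over all genes under these settings are not given here. These counts thus show how the calls moved and not whether members differed from other genes.

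The other reversals were of log2 differences that were not called with the settings of the report. For neurons over dividing progenitors, Smarca4 was -0.0079 with no library block and ran from -0.021 to 0.17 without a library, and Smarcd3 ran from -0.237 to 0.051. For glia over dividing progenitors, Dpf3 was -0.044 with classes from markers. Ss18l1 was 0.0087 with no filter, 0.078 at a limit of 5%, 0.109 at resolution 2 and 0.063 with classes from markers, and ran from -0.097 to 0.122 without a library. Smarcd3 was 0.415 at a limit of 5% and ran from -0.193 to 0.066. For neurons over glia, Actl6a was 0.069 by DESeq2, 0.00060 with no filter and 0.168 at a limit of 5%, and ran from -0.055 to 0.080. Smarcd3 was 0.062 by DESeq2, 0.138 at resolution 2, 0.210 with classes from markers and 0.015 with no block, and ran from -0.044 to 0.035. For excitatory over inhibitory neurons, Dpf1 was -0.026 with no filter and -0.0093 at resolution 2, and ran from -0.041 to 0.079. Smarca4 was -0.045 with no filter and -0.024 with classes from markers, and ran from -0.037 to 0.060, and Smarcd3 ran from -0.456 to 0.0100. For inhibitory neurons over their dividing progenitors, Smarca4 ran from -0.227 to 0.041.

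With the replicate number as a block, 0 of 118 member tests were called by edgeR between genotypes, against 144 of 154578 over all genes. Of the member tests 1 had an unadjusted p under 0.05 (Dpf3 in dividing inhibitory progenitors, edgeR adjusted p = 0.999). In that class 359 of 11277 genes did. Over the classes this share was lowest in inhibitory neurons (357 of 12797 genes) and highest in oligodendrocytes (600 of 10737). In simulated counts this fit recovered 61.8%, 70.3% and 64.4% of 2-fold changes in excitatory neurons, inhibitory neurons and OPCs, with 16, 25 and 10 false calls. The replicate differences of the genotypes correlated at r = 0.61 to 0.90 over genes, but the libraries share only a number and differ in software by it.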
